A study of Mus musculus with 4 samples.

Results

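Complement and coagulation factors were followed in cultured mouse hepatocytes given DMSO or the liver X receptor (LXR) agonist GW3965. The set holds 37 genes of the 24637 genes and named features measured, and every non-control probe that the array names for one of them was taken. Primary hepatocytes came from bl6 mice and were grown in DMEM with 10% serum, then held overnight in 0.5% serum. All arrays share 5 µM simvastatin, which blocks the step that makes mevalonate, and 100 µM mevalonic acid, which supplies it, so the DMSO cells are controls for GW3965 alone and not untreated cells. The 2 groups were DMSO and 1 µM GW3965, with 2 arrays each, called a and b. The age and sex of the mice are not given, and neither is whether the letters stand for animals, cultures or preparations. The spread behind every p-value is thus the spread between these samples, which may be technical.

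The complement system is a protease cascade of the blood that marks and lyses microbes. Its classical and lectin pathways start from bound recognition proteins, its alternative pathway runs on factor B and properdin, and all converge on C3 and on a terminal pore. The coagulation cascade is a second set of serine proteases and cofactors that ends with thrombin cutting fibrinogen to fibrin, which plasmin later dissolves. Hepatocytes make most of these plasma proteins, many of them as acute phase proteins. Factor VIII is a textbook exception that is made mainly by endothelial cells, and properdin and factor D are made largely by leukocytes and fat cells.

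All 37 genes had a probe, with 51 probes on 78 spots, and each gene's standing probe was well above background on all 4 arrays. Where a gene had several probes, the one with the highest mean stood for it, as was the case for 12 genes, while 25 had 1 probe. Values are log2 of the scanner's background-corrected signal minus the 75th percentile of the array, so 0 is the level of that percentile. Pairs of values are given with replicate a first and replicate b after it. On this scale 29 genes lay above 0 on all 4 arrays and 4 lay below it on all 4, namely Masp1, Cfd, F8 and F13b. Probes differ in how well they bind, so these positions do not rank the genes against each other.

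Of the hepatocyte markers, 10 of 10 were measured and well above background on all arrays. Albumin (Alb) stood at 9.45 and 9.35 on the DMSO arrays and 9.62 and 9.10 on those with GW3965. Above 0 on all 4 arrays lay 7 of the 10, while Cps1 and Tdo2 lay below it on all 4. Markers of other liver cells were measured too, 8 of 8 for macrophages and Kupffer cells, 6 of 6 for endothelium, 5 of 6 for stellate cells and fibroblasts, 5 of 5 for leukocytes and 2 of 3 for cholangiocytes. In that order, 2, 4, 3, 3 and 0 of them lay above 0 on all 4 arrays. The fibroblast marker Dcn stood at 6.10 and 4.93 under DMSO, and the macrophage marker Cd68 at 5.30 and 4.54. Array-wide, 62.5% to 69.1% of probes were well above background and 0 spots were saturated. The LXR target Abca1, a sterol transporter, stood at 1.46 and 0.55 under DMSO, against 3.31 and 3.85 under GW3965.

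**Figure D1:**
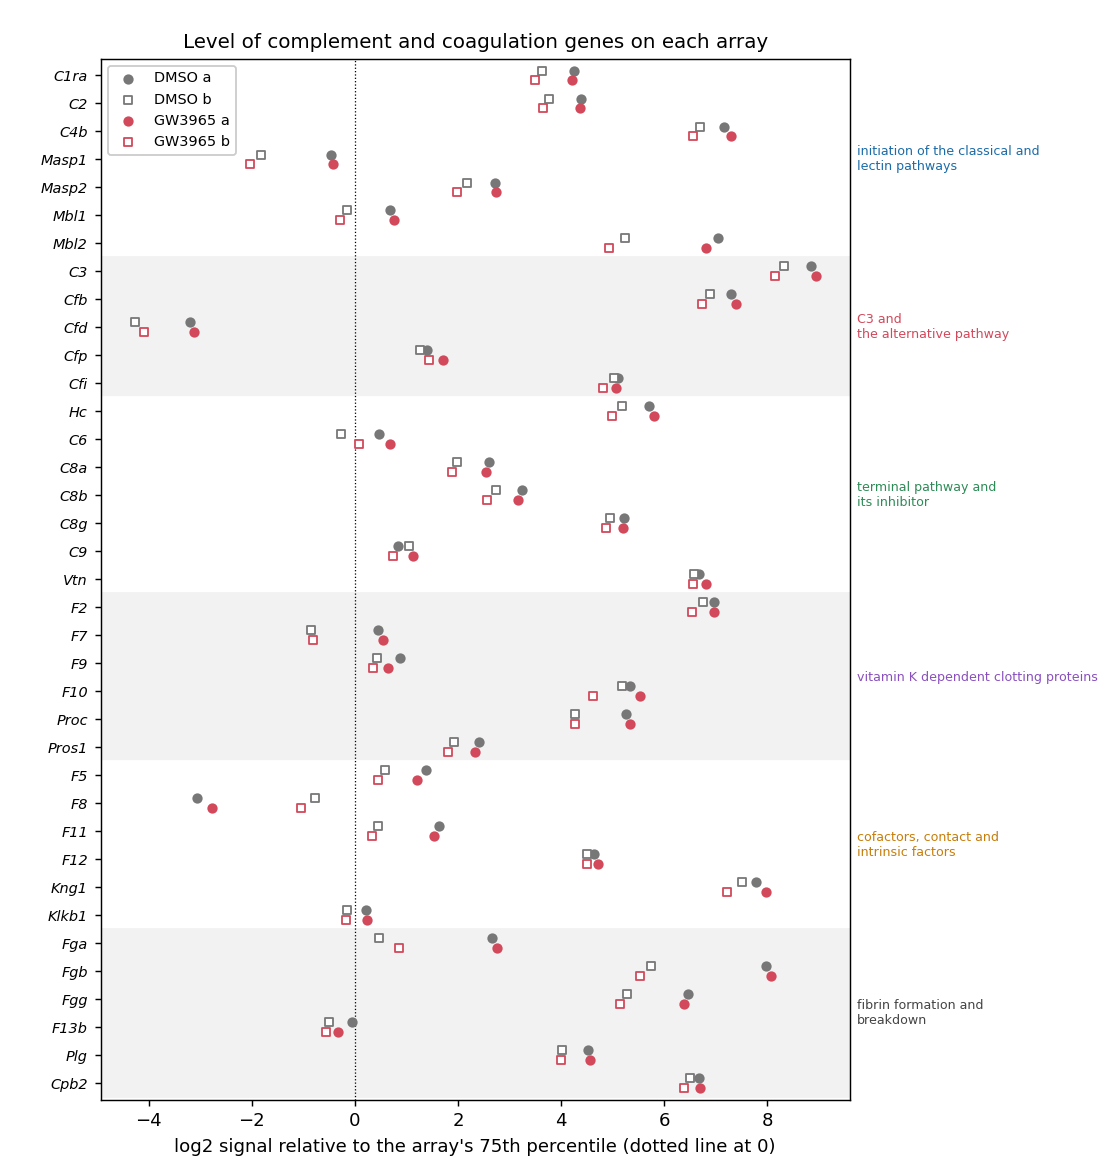
Level of each of the 37 genes on the 4 arrays, as log2 signal relative to the array's 75th percentile (horizontal axis, dotted line at 0), grouped by role. Grey marks DMSO, red GW3965, filled circles replicate a and open squares replicate b. Colours lie close together within a letter, while squares lie left of circles in both groups for 35 genes and right of them in both for F8.

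The comparison of GW3965 with DMSO asks whether these transcripts differ in hepatocytes given the agonist. None of the 37 genes passed the test in either direction. In limma, with adjustment over all 24637 genes, 0 of 37 had an adjusted p under 0.05, where 0% of all genes passed, and every adjusted p among them rounded to 1.00. Before adjustment 0 of 37 were under 0.05 as well, beside 0.824% of all genes, and the smallest p was 0.303, for Cfp. The LXR target Abca1 did not pass after adjustment either, with a difference of 2.58 ± 0.39 (SE) and an unadjusted p of 0.0014 in limma. The adjusted test thus did not call even a difference of that size. Mean levels were higher with GW3965 for 12 of the 37 genes and lower for 25. The median log2 difference was -0.05, beside -0.006 over all genes, and all 37 differences lay within 0.3 of 0, from -0.27 for Mbl2 to 0.29 for C6. With arrays scaled on spike-in controls instead, the median was 0.13 beside 0.17 over all genes, and 23 of the 37 differences changed sign. On the main scale the standard errors ran from 0.20 to 1.12, with a median of 0.35.

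The 95% confidence interval, in this fit without a block, was narrowest for F12, from 0.713-fold to 1.46-fold of the DMSO level, and widest for Fgb, from 0.126-fold to 7.23-fold. With 2 arrays against 2, an exact permutation test has 0.333 as its smallest two-sided p. For 34 of the 37 genes the difference between groups was smaller than the smaller of the 2 gaps between replicates (91.9%), beside 65.9% of all genes. Leaving out 1 array moved the median difference. It was 0.22 when DMSO replicate a was left out and 0.29 when GW3965 replicate b was, and it was -0.34 when DMSO replicate b was left out and -0.41 when GW3965 replicate a was.

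**Figure D2:**
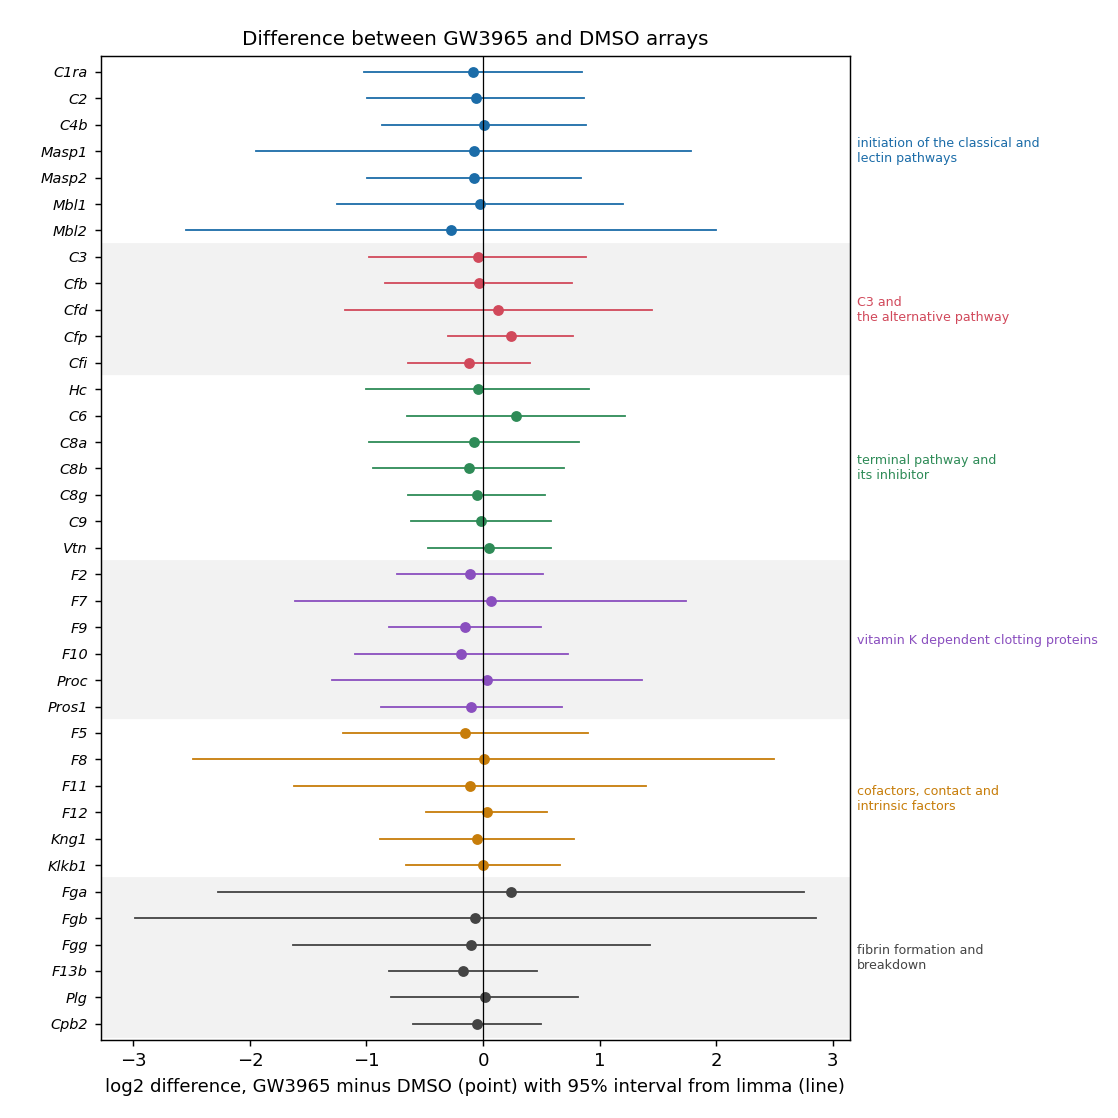
Log2 difference of GW3965 minus DMSO for each of the 37 genes (points) with its 95% confidence interval from limma (bars), 2 arrays per group. Every interval spans 0, and the widest is that of Fgb, from -2.99 to 2.85.

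The groups were separated on the arrays for 1 of the 37 genes, while 16% of all genes had no overlap between groups. That gene was Cfp, which encodes properdin, the protein that stabilises the alternative pathway convertase. Cfp stood at 1.40 and 1.27 on the DMSO arrays and 1.71 and 1.44 on those with GW3965. The lower GW3965 array was thus just above the higher DMSO array, and the difference of 0.24 ± 0.20 (SE, 2 arrays per group) did not pass the test (unadjusted p = 0.303 in limma). The groups overlapped for Cfp when arrays were centred on their medians, where its difference was 0.19. Properdin is a leukocyte product in blood. Of the 5 leukocyte markers 3 had a higher mean with GW3965 and 2 a lower one, with a median of 0.005. The part of leukocyte RNA in the Cfp level was not tested.

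The other genes of C3 and the alternative pathway overlapped between groups. C3, the central component on which all pathways meet, stood at 8.86 and 8.34 on the DMSO arrays and 8.94 and 8.16 on those with GW3965. Cfb, the protease of the alternative convertase, stood at 7.30 and 6.90 under DMSO, against 7.39 and 6.74 under GW3965. In both genes the GW3965 arrays were the highest and the lowest of the 4, so the DMSO arrays lay between them. Cfi, the protease that inactivates C3b and C4b, stood at 5.10 and 5.03 on the DMSO arrays and 5.07 and 4.81 on those with GW3965. Cfd, the factor D that cuts bound factor B, was at -3.20 and -4.27 under DMSO, against -3.12 and -4.09 under GW3965. Over these 5 genes 2 had a higher mean with GW3965 and 3 a lower one, with a median difference of -0.04.

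Of the 7 genes that start the classical and lectin pathways, 1 had a higher mean with GW3965 and 6 a lower one, with a median of -0.08. C1ra, a protease of the C1 complex, stood at 4.25 and 3.64 on the DMSO arrays and 4.22 and 3.50 on those with GW3965. C2, which gives the protease of the C3 convertase, stood at 4.39 and 3.76 under DMSO, against 4.36 and 3.66 under GW3965. C4b, the other part of that convertase, was at 7.16 and 6.69 on the DMSO arrays and 7.30 and 6.57 on those with GW3965. Replicate b was the lower array of each group in all of these, and the group difference was smaller than either gap. The C4b probe is also assigned to the near-identical C4a by its accessions, so the signal may come from both.

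Among the lectin pathway genes, the standing probes of Mbl2 and Masp1 showed wider gaps. Mbl2, one of the mannose-binding lectins that recognise microbial sugars, stood at 7.05 and 5.25 under DMSO, against 6.82 and 4.93 under GW3965. Replicate a was 3.48-fold above replicate b with DMSO and 3.71-fold with GW3965, while the groups differed by -0.27 ± 0.87 (SE). The related Mbl1 was at 0.69 and -0.16 on the DMSO arrays and 0.75 and -0.28 on those with GW3965. Masp1, a protease that travels with these lectins, stood at -0.46 and -1.83 under DMSO, against -0.41 and -2.03 under GW3965. The gap from a to b on another Masp1 probe was -0.61 with DMSO and -0.96 with GW3965. On a further Masp1 probe it was -0.19 and 0.55, in opposite directions. Of these probes, only the one with gaps of -0.61 and -0.96 is assigned to Masp1 in RefSeq by its accessions. The partner of Masp1, Masp2, which cuts C4 and C2, stood at 2.72 and 2.18 on the DMSO arrays and 2.75 and 1.99 on those with GW3965. On the standing probes of all of them replicate b was the lower array of both groups.

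The terminal pathway had a median difference of -0.05, with 2 of 7 genes higher and 5 lower in mean with GW3965. Hc, which encodes C5, the first protein of the pore, was at 5.71 and 5.18 under DMSO, against 5.81 and 4.99 under GW3965. C6, the next to join, had the most positive difference of the 37, at 0.46 and -0.28 on the DMSO arrays and 0.68 and 0.08 on those with GW3965. The higher DMSO array of C6 lay between the GW3965 arrays, and the difference of 0.29 ± 0.36 (SE) turned to -0.08 without DMSO replicate b and to -0.01 without GW3965 replicate a. C9, which polymerises into the pore, was at 0.84 and 1.05 under DMSO, against 1.13 and 0.73 under GW3965, and was the only one of the 37 whose replicate gaps ran in opposite directions. Vtn, the vitronectin that blocks pore insertion, was at 6.68 and 6.59 on the DMSO arrays and 6.82 and 6.56 on those with GW3965.

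The C8 chains are encoded by separate genes and assemble into 1 protein. C8a was at 2.60 and 1.98 under DMSO, against 2.54 and 1.88 under GW3965. C8b was at 3.25 and 2.73 on the DMSO arrays and 3.17 and 2.57 on those with GW3965. C8g, a lipocalin chain encoded apart from the other chains, was at 5.22 and 4.96 under DMSO, against 5.20 and 4.88 under GW3965. All 3 chains were lower on replicate b in both groups, with gaps of -0.26 for C8g to -0.62 for C8a under DMSO, and their differences between groups were -0.08 ± 0.34 for C8a, -0.12 ± 0.31 for C8b and -0.05 ± 0.22 for C8g (SE).

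The vitamin K dependent clotting proteins are proteases and a cofactor that need gamma-carboxylation to bind membranes. Over 6 genes the median difference was -0.10, with 2 higher and 4 lower in mean with GW3965. F2, which encodes prothrombin, the precursor of thrombin, stood at 6.98 and 6.76 on the DMSO arrays and 6.98 and 6.54 on those with GW3965. F7, which starts clotting with tissue factor, stood at 0.45 and -0.86 under DMSO, against 0.54 and -0.82 under GW3965. F9, the protease lost in haemophilia B, stood at 0.88 and 0.44 on the DMSO arrays and 0.65 and 0.36 on those with GW3965. F7 was 2.48-fold higher on replicate a than on replicate b with DMSO and 2.56-fold with GW3965, the widest gap of this group.

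F10, the protease that makes thrombin, stood at 5.34 and 5.18 under DMSO, against 5.53 and 4.62 under GW3965. The probe that stands for F10 is made of A or G at 60 of 60 bases (100%), against 32 of 60 (53.3%) in the gene's other probe. That other probe read 4.55 and 3.94 on the DMSO arrays and 4.69 and 3.83 on those with GW3965, and its difference was 0.01 ± 0.39 (SE) where the standing probe gave -0.19 ± 0.35. How much of the standing probe's signal is F10 was not tested. The anticoagulant protease gene Proc was at 5.27 and 4.28 under DMSO, against 5.35 and 4.27 under GW3965. Its cofactor Pros1, protein S, was at 2.41 and 1.92 on the DMSO arrays and 2.34 and 1.80 on those with GW3965.

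Among the cofactors, contact and intrinsic factors, 3 of 6 had a higher mean with GW3965 and 3 a lower one, with a median of -0.03. F12, the contact protease, differed least between arrays, at 4.65 and 4.50 under DMSO, against 4.71 and 4.50 under GW3965, a difference of 0.03 ± 0.20 (SE). Klkb1, the prekallikrein that activates it, was at 0.22 and -0.16 on the DMSO arrays and 0.23 and -0.16 on those with GW3965. Kng1, the kininogen that releases bradykinin, was at 7.79 and 7.52 under DMSO, against 7.98 and 7.22 under GW3965. Both Kng1 probes are also assigned to Kng2, so the genes cannot be told apart here. F11, the intrinsic protease upstream of factor IX, was at 1.64 and 0.46 on the DMSO arrays and 1.53 and 0.34 on those with GW3965. F5, the cofactor of factor X, was at 1.39 and 0.58 under DMSO, against 1.21 and 0.46 under GW3965.

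Fibrinogen, the substrate of thrombin, is built from 3 chains whose genes lie side by side on chromosome 3. Fga and Fgb had the most negative gaps from replicate a to replicate b of the set. Fga, the alpha chain, stood at 2.65 and 0.47 on the DMSO arrays and 2.75 and 0.85 on those with GW3965. Fgb, the beta chain, stood at 7.98 and 5.76 under DMSO, against 8.08 and 5.53 under GW3965. Fgg, the gamma chain, stood at 6.47 and 5.28 on the DMSO arrays and 6.39 and 5.15 on those with GW3965. For each chain both replicates a were above both replicates b. The fold of replicate a over b was 4.55 with DMSO and 3.73 with GW3965 for Fga, 4.67 and 5.86 for Fgb, and 2.27 and 2.35 for Fgg. Against this, GW3965 minus DMSO was 0.24 ± 0.96 for Fga, -0.07 ± 1.12 for Fgb and -0.10 ± 0.59 for Fgg (SE, 2 arrays per group). The Fga difference depended on single arrays, being 1.33 without DMSO replicate a and -0.85 without DMSO replicate b.

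For the fibrinogen genes the 250 bases before each start are given, 5′ to 3′ on the gene's strand, from RefSeq on GRCm38.p6. Matches to the searched motifs are in capitals. The part of these motifs in the replicate gaps was not tested. The windows are chr3:83025903-83026152 on the plus strand for Fga, chr3:83049864-83050113 on the minus strand for Fgb and chr3:83007474-83007723 on the plus strand for Fgg.
Fga: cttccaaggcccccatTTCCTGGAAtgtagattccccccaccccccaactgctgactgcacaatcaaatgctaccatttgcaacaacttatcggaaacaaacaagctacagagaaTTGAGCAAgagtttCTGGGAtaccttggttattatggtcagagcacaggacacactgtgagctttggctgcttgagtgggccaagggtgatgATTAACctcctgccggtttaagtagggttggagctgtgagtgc
Fgb: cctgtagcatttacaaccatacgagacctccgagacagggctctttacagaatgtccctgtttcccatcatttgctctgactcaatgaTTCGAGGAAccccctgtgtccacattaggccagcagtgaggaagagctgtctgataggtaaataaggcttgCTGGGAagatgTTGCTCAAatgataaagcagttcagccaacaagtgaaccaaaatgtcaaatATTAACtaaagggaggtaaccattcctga
Fgg: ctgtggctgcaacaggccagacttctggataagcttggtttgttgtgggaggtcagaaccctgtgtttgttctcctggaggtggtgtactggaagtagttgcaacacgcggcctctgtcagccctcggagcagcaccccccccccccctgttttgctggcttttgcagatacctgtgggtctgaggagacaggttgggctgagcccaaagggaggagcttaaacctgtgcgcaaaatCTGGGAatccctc
Both strands were searched, in the 250 bases before the start and not beyond it. The motifs were TTGCNNAA for C/EBP, GTTAAT for an HNF1 motif, CTGGGA for an interleukin-6 response core, TTCNNNGAA for STAT factors and the direct repeat of AGGTCA spaced by NNNN for LXR, none of which overlap in these 3 windows. Fga matched C/EBP at 135 to 128 bases before the start, the HNF1 motif at 43 to 38, the interleukin-6 core at 121 to 116 and STAT at 234 to 226. Fgb matched the same motifs, at 80 to 73, 29 to 24, 91 to 86 and 162 to 154 bases. Fgg matched the interleukin-6 core alone, at 13 to 8 bases.

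Promoter windows were found for 29 of the 37 genes, 30 windows in all. Among them C/EBP letters occurred in 7 of 30 windows, beside 9.56% of 32851 windows of all genes. The HNF1 motif occurred in 9 of 30 (beside 6.43% of all), the interleukin-6 core in 12 of 30 (beside 27.0%) and the STAT letters in 6 of 30 (beside 7.02%). The LXR letters occurred in 0 of 30, beside 0.015% of all windows. These are matches of letters, given as a description and not as sites of binding.

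The gap of Fga was seen by both of its probes. Their sequences are shown beside those for Fgb and F8, because they read the widest gaps of standing probes down and up, and all are 60 bases long.
Fga, standing probe: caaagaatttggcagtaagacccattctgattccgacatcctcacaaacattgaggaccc
Fga, other probe: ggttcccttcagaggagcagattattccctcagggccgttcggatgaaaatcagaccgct
Fgb: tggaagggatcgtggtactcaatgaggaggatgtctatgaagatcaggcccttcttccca
F8: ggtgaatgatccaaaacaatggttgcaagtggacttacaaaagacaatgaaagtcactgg
On mm9, the standing Fga probe lies at chr3:82835678-82835737 and the other at chr3:82837260-82837319, both on the plus strand and 1582 bases apart. The Fgb probe lies at chr3:82846334-82846393 and the F8 probe spans chrX:72455821-72456709, both on the minus strand. The exon or untranslated region that each probe meets was not analysed here. The other Fga probe read 1.71 and -2.64 under DMSO, against 1.74 and -3.02 under GW3965. Replicate a was thus 20.5-fold above replicate b with DMSO and 27.2-fold with GW3965, wider than on the standing probe, while GW3965 minus DMSO was -0.18. The Fga probes agreed on which replicate was lower in each group and differed in the sign of the group difference.

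**Figure D3:**
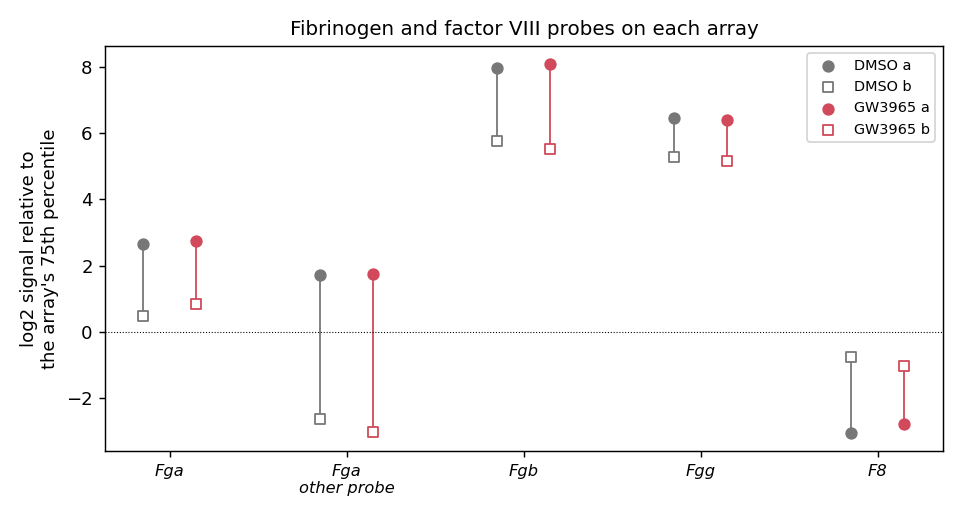
Level of the fibrinogen probes and the F8 probe on each array, as log2 signal relative to the array's 75th percentile. Grey marks DMSO, red GW3965, filled circles replicate a and open squares replicate b, with a line joining the arrays of a group. The fibrinogen lines run down from a to b in both groups, furthest for the other Fga probe (1.71 to -2.64 with DMSO), and the F8 lines run up.

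The remaining genes of this group act on the clot. F13b, the carrier subunit of the enzyme that crosslinks fibrin, stood at -0.05 and -0.50 on the DMSO arrays and -0.32 and -0.56 on those with GW3965. Plg, the precursor of plasmin, stood at 4.52 and 4.01 under DMSO, against 4.56 and 3.99 under GW3965. Cpb2, the carboxypeptidase that slows fibrin breakdown, stood at 6.68 and 6.51 on the DMSO arrays and 6.69 and 6.40 on those with GW3965. Replicate b was the lower array throughout, and by much less than in the fibrinogen genes. Over the 6 genes of fibrin formation and breakdown the median difference was -0.06, with 2 higher and 4 lower in mean with GW3965.

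F8, which encodes the cofactor of factor IX, was the gene whose replicates ran the other way. It stood at -3.06 and -0.77 under DMSO, against -2.78 and -1.04 under GW3965, so both replicates b were above both replicates a. The gap from a to b was 2.28 with DMSO and 1.74 with GW3965, above that of 99.66% and 99.45% of all genes, while the groups differed by 0.004 ± 0.95 (SE). A second F8 probe was well above background on 2 of 4 arrays, both replicates b, and was not kept. Of the 6 endothelial markers 4 were higher on replicate b in both groups and Kdr was lower in both. Stab2, a scavenger receptor of liver sinusoidal endothelium, stood at 1.86 and 3.50 on the DMSO arrays and 2.12 and 3.47 on those with GW3965, the widest rise of that list.

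Across the set, 35 of 37 genes were lower on replicate b than on replicate a in both groups, where 31.8% of all genes were. F8 alone was higher on replicate b in both groups, as were 43.4% of all genes, and C9 was mixed. The median gap from a to b was -0.51 with DMSO and -0.70 with GW3965, while over all genes it was 0.08 and 0.05, with an SD across genes of 0.56 in both groups. The arrays of a group stood over 1 log2 unit apart in both groups for 8 of 37 genes, beside 3.91% of all genes. Those 8 were Masp1, Mbl2, F7, F8, F11, Fga, Fgb and Fgg, by their standing probes. On the other Masp1 probes the gaps were under 1 log2 unit. These gaps are given as a description, with no test.

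The size of this gap depended on the scale. The 8 spike-in controls well above background on every array had a mean of 3.20 and 3.17 under DMSO, against 3.29 and 2.72 under GW3965, lowest on GW3965 replicate b. When arrays were scaled on these controls, 24 of 37 genes were lower on replicate b in both groups, and 9.55% of all genes were. On that scale the median gap of the set was -0.49 with DMSO and -0.14 with GW3965, and that of all genes moved to 0.10 and 0.61. Under quantile normalization, median centring and normexp correction the count was 35 of 37, as on the main scale. The share of all genes was 36.4%, 43.0% and 41.4% in that order, beside 31.8% on the main scale.

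**Figure D4:**
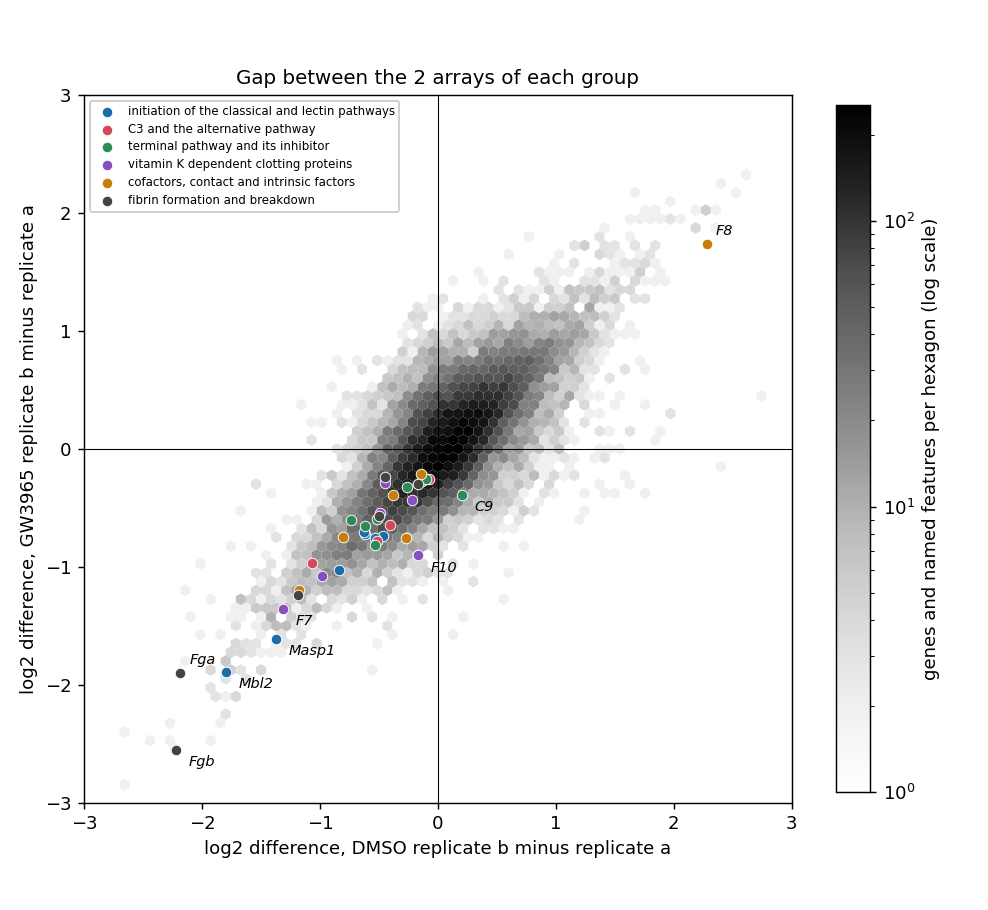
Gap from replicate a to replicate b with DMSO (horizontal) and with GW3965 (vertical), in log2 units, for the 37 genes (coloured by role) and for all genes and named features (grey hexagons, log colour scale). Beyond the axis limit of 3 lie 67 features that are not drawn. The set lies in the lower left except for C9 and F8, with Fgb at -2.22 and -2.55 and F8 at 2.28 and 1.74.

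Cell type markers differed between the same replicates. All 10 hepatocyte markers were lower on replicate b in both groups, and their summed level, on a linear scale relative to the 75th percentile, was 3342 and 2496 with DMSO and 3509 and 2061 with GW3965. Macrophage and Kupffer cell markers were lower on b in both groups for 7 of 8, with sums of 46.8 and 28.2, then 53.6 and 31.4. Cd68 dominated these macrophage sums. Endothelial markers were higher on b in both groups for 4 of 6 and lower for 1, with sums of 32.2 and 39.1, then 33.96 and 42.35. Without Stab2 the endothelial sums were 28.5 and 27.8, then 29.6 and 31.3, so the rise with DMSO rested on that gene. For the 37 genes the sum was 2136 and 1411 with DMSO and 2235 and 1249 with GW3965.

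The smaller marker lists were mixed. Of 5 stellate cell and fibroblast markers 3 were higher on b in both groups and 1 lower, with sums of 74.2 and 38.6, then 78.1 and 36.1, which the fibroblast proteoglycan Dcn dominated. Without Dcn the sums were 5.48 and 8.22, then 6.73 and 8.79. Both measured cholangiocyte markers were higher on b in both groups, with sums of 0.954 and 6.13, then 1.48 and 7.51. Krt19 dominated these sums, while Epcam was dim and well above background on only 3 arrays. Of the 5 leukocyte markers 3 were lower and 2 higher, with sums of 8.22 and 19.2, then 7.68 and 13.4. No marker in these lists is listed at 0, and Lrat and Krt7 had no kept probe and so no value. The part of cell makeup in the gaps of complement and coagulation genes was not tested. In bulk RNA, fewer cells of a type and less RNA per cell cannot be told apart.

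**Figure D5:**
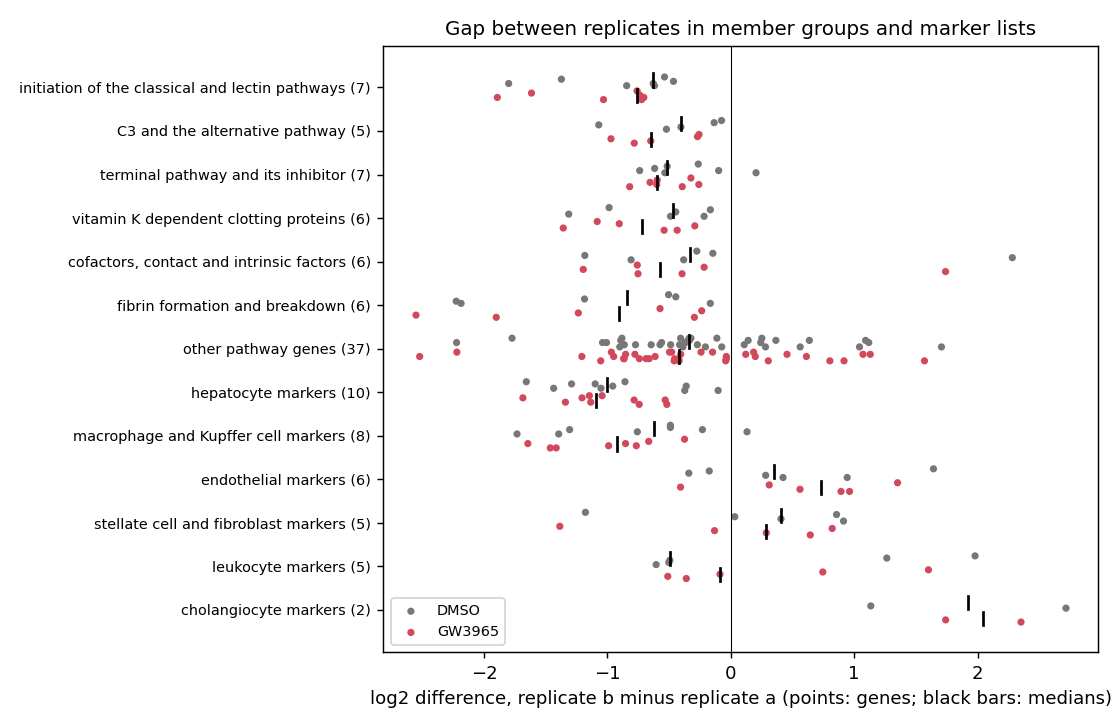
Gap from replicate a to replicate b, in log2 units, for each gene (points) of the 6 role groups, the other pathway genes and the cell type marker lists, with the number of genes measured in brackets. Grey is DMSO, red GW3965, and black bars are medians. The bars of all 6 role groups, of the other pathway genes and of hepatocyte, macrophage and leukocyte markers lie below 0. Those of endothelial, stellate and cholangiocyte markers lie above it.

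Probes other than the standing one were kept for 13 cases, and 8 of them differed in sign or by over 0.5 in the group difference. F5 differed most, its other probe reading -0.10 and -0.83 on the DMSO arrays and 0.98 and -0.84 on those with GW3965. The single high array was GW3965 replicate a, and the difference was 0.53 ± 0.66 (SE) where the standing probe gave -0.15 ± 0.40. One of the other Masp1 probes gave 0.23 ± 0.26 where the standing probe gave -0.08 ± 0.71. The rest were small differences of the other sign, at 0.05 for C1ra, C8a and Masp2 and 0.06 for Kng1, beside those of F10 and Fga given above.

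Of 39 other genes of these pathways, which include receptors, inhibitors and plasminogen activators, 37 were measured. C4a and A2m were not measured here. In limma 0 rose and 0 fell at an adjusted p under 0.05, and 0 had an unadjusted p under 0.05. Their median difference was -0.08, with 12 higher and 25 lower in mean with GW3965. Plau, the urokinase that activates plasminogen, was the 1 gene with both GW3965 arrays above both DMSO arrays (9.41% of all genes), at -2.25 and -2.01 under DMSO, against -1.89 and -1.69 under GW3965. Its difference was 0.34 ± 0.21 (SE). The groups were separated downwards for 3 genes (6.55% of all genes). Cfhr2, one of them, stood at 3.75 and 3.38 on the DMSO arrays and 3.36 and 3.32 on those with GW3965, with a difference of -0.22 ± 0.22 (SE).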

How the data were processed

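RNA of each sample was labelled with Cy3 and read on an array of Agilent design 028005, all 4 on 1 slide in 1 scan. Per the file headers, the deposited values are spot intensity from Agilent Feature Extraction 10.7.3.1, background-corrected on a linear scale and not scaled between arrays; version 11.5.1.11 stands in the submitters' processing notes. The authors' deposited series table repeats the same intensity, identical at all 62976 features. Scanner settings and earlier steps were not given in the sources used here. The treated samples' treatment label is read as the LXR agonist that the series names.

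Here, outlier spots and control spots were left out, the deposited intensity was turned to log2 and averaged per probe, and the array's 75th percentile over 55681 probes was subtracted. Kept probes (35478) were well above background on both DMSO arrays, both GW3965 arrays or all 4. Symbols came from RefSeq accessions (GRCm38.p6) for 26762 probes and otherwise from the files. The kept probe with the highest mean stood for a gene, which gave 24637 genes and named features. The comparison of groups used limma 3.58.1 (R 4.3.3, tables read with data.table version 1.17.8), with no block, two-sided tests, Benjamini-Hochberg adjustment over all of them and a threshold of 0.05. Degrees of freedom were 2.72 from the prior and 2 residual, and errors are SE from this fit. The fit was tested on simulated data with independent noise on each array, without the deviations that same-lettered arrays share here. Positions are on mm9, per the file headers. Promoters came from RefSeq and were searched in Python 3.11.15; figures were drawn with matplotlib 3.10.9.

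All 37 genes are named, and other probes of a gene where their difference has the other sign or is over 0.5 away. The genes, role groups, pathway list and marker lists were chosen with earlier results of these data known, so their counts are descriptions. Some genes of the pathway list are counted but not reported here by name. The alternatives were quantile normalization, median centring, normexp with an offset of 50, the deposited table, each probe, the mean of probes, a filter on all 4 arrays or none, an intensity trend, a robust prior, an adjusted p under 0.1, a block for the replicate letter, leaving out an array and, chosen after seeing the data, scaling on spike-in controls. The number of arrays limits the precision.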

Additional observations from a re-analysis of the deposited data

How the results depend on the processing

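Of the 37 genes, 0 passed an adjusted p under 0.05 in limma under every alternative run. Their median difference was -0.03 with quantile normalization, -0.10 with median centring, -0.05 with normexp, -0.03 with the mean of probes and 0.13 with spike-in scaling, which moved the median of all genes to 0.17. The count of genes whose groups did not overlap was 1, but 0 with median centring (18.1% of all genes) and 3 with spike-in scaling (12.2%), and 6 to 32 with an array left out (DMSO replicate a left out gave 6, DMSO replicate b 16, GW3965 replicate a 32 and GW3965 replicate b 22). With an array left out, 56.4% to 61.8% of all genes had no overlap, since a group then has a single array. With an array left out, 10 to 24 of the 37 differences changed sign. Over all genes 0 passed in the main fit, while 39 did with spike-in scaling. In that fit the standard error was the same, 0.498, for each of the 37 genes, so it did not reflect the spread of the single gene.

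The replicate letters are shared by the groups, but the labels do not say what they mark and there are only 2 pairs. The deviations of same-lettered arrays from their group means correlated at 0.72 over all genes and 0.96 over the 37, across genes, which are not independent. With the replicate block, 15 of all genes passed and 0 of the 37, whose smallest adjusted p was 0.962 and whose standard errors were 0.13 to 0.20. For Fgb the standard error was 0.14 with the block and 1.12 without it.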

Other observations

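Other genes of these pathways also differed between replicates. Serpinf2, the plasmin inhibitor, was at 4.82 and 2.60 under DMSO, against 4.81 and 2.29 under GW3965, and F13a1, the catalytic subunit that crosslinks fibrin, at -3.22 and -4.99, then -3.07 and -5.28. Both were lower on replicate b in each group, like the fibrinogen genes. Of the 37 other pathway genes measured, 25 were lower on replicate b in both groups and 11 higher.

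Among the 11 were genes of vessel wall and cell surface. Vwf, the carrier of factor VIII made by endothelium, was at -2.08 and -0.37 on the DMSO arrays and -1.79 and -0.22 on those with GW3965. Procr, the endothelial receptor of protein C, was at 3.76 and 4.88 under DMSO, against 4.03 and 4.65 under GW3965, and the urokinase receptor gene Plaur at 5.38 and 6.47, then 5.41 and 6.54. In all 3 the groups overlapped. Genes of the vessel wall did not all run this way. Thbd, which encodes thrombomodulin, was at 2.96 and 2.55 under DMSO, against 2.71 and 2.29 under GW3965. The plasminogen activator gene Plat was at -0.38 and -0.95, then -0.40 and -0.86, so both were lower on replicate b in each group. C5ar1, the receptor of the C5a fragment, had the most negative group difference of the other pathway genes, -0.44 ± 0.33 (SE). It was at -3.39 and -3.73 on the DMSO arrays and -3.62 and -4.39 on those with GW3965.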
